A study of Mus musculus with 43 samples.

Results

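The genes described here are 10 genes known for the self-renewal of mouse spermatogonial stem cells, namely Id4, Gfra1, Ret, Etv5, Bcl6b, Lhx1, Pou3f1, Nanos2, Zbtb16 and Eomes. They were chosen by name from earlier knowledge of the tissue, and each was matched by its symbol in the GENCODE vM21 annotation of the mouse genome build GRCm38 (mm10) to 1 of the 55401 gene identifiers of the RNA tables. For chromatin, a gene was assigned every peak whose summit lay within 3000 bp of any of its annotated transcript starts. The study deleted Prmt1, the main arginine methyltransferase that places asymmetric dimethyl marks, in the germ cells of C57BL/6J mice by tamoxifen given for 3 days to animals with Ddx4-CreERT2 and a floxed Prmt1 allele on both chromosomes (Prmt1-dKO). Ddx4 is expressed in germ cells, so that the recombinase is made there, and the knock-in also makes EGFP. The labels state the tamoxifen course for both genotypes and name C57BL/6J mice for the WT CUT&Tag.

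RNA was measured at postnatal day 7 (P7) in 2 ways. Bulk RNA-seq of whole testis compared 3 WT with 3 Prmt1-dKO libraries, and Smart-seq2, a full-length RNA protocol for few cells, compared 2 WT with 2 Prmt1-dKO libraries of EGFP-positive spermatogonia obtained by flow sorting. The labels call the bulk libraries spermatogonia, but total RNA was taken from the testis. They call the sorted controls WT, whereas the sorting methods name Ddx4-GFP-CreERT2 animals with 1 floxed and 1 intact Prmt1 allele, and the label is kept below. CUT&Tag, which cuts and tags DNA beside an antibody, gave 33 peak lists from tubule cells: 15 of WT testis at P7 for H4R3me2a, H3R2me2a, H3R8me2a, H4R3me1, H4R3me2s, H3K27ac and H3K4me3, 16 of WT testis at P14 for the same marks, and 2 of Prmt1-dKO testis at P7 for H4R3me2s. The P14 samples carry the title spermatogonia and the cell type spermatocyte, and the peaks of the P14 H4R3me2s lists have names that begin with SD17. The study describes its replicates as biological, but the labels do not say whether they came from separate animals, and p-values measure only the spread between these libraries.

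Spermatogonial stem cells divide on the basement membrane of the seminiferous tubule, and Sertoli and peritubular cells feed them glial cell line-derived neurotrophic factor (GDNF). GDNF binds the membrane-anchored co-receptor GFRA1, which engages the receptor tyrosine kinase RET, and the signal raises the transcription factor genes Etv5, Bcl6b, Lhx1 and Pou3f1. ID4 blocks basic helix-loop-helix factors that drive differentiation, NANOS2 is an RNA-binding protein that holds back differentiation, ZBTB16 (PLZF) is a zinc finger repressor of undifferentiated spermatogonia, and EOMES is a T-box factor found in a subset of GFRA1-positive cells. H3K4me3 sits at active promoters, H3K27ac at active promoters and enhancers. The arginine marks include asymmetric dimethylation (H4R3me2a, H3R2me2a, H3R8me2a), symmetric dimethylation (H4R3me2s) and monomethylation (H4R3me1).

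The promoter sequences of 4 members are shown because they span the range seen at these genes, from Etv5, whose promoter was the most often covered by peaks, to Nanos2, which had no peak in any list. Each runs 5′ to 3′ on the strand of the gene, from 250 bases before to 50 bases after the RefSeq start (build GRCm38.p6), in lower case with each CG dinucleotide (CpG) in capitals.
Etv5, chr16:22439521-22439820, minus strand: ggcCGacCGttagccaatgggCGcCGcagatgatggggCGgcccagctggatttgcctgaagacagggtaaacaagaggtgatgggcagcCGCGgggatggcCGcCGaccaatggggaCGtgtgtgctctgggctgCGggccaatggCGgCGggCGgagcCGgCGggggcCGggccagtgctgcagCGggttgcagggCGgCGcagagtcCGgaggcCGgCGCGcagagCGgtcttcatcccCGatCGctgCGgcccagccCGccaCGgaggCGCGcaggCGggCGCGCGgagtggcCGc
Id4, chr13:48260866-48261165, plus strand: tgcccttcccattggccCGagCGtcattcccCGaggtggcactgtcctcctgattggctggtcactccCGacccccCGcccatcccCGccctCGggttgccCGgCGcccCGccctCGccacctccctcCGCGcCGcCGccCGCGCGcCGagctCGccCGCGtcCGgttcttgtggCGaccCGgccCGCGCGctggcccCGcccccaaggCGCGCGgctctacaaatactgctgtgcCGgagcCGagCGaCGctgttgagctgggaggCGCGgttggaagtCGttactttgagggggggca
Gfra1, chr19:58455349-58455648, minus strand: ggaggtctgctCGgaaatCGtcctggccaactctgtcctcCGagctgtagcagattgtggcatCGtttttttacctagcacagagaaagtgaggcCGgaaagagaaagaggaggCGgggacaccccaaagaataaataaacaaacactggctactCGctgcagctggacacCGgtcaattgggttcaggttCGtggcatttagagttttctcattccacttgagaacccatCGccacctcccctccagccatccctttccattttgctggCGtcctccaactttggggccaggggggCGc
Nanos2, chr7:18987274-18987573, plus strand: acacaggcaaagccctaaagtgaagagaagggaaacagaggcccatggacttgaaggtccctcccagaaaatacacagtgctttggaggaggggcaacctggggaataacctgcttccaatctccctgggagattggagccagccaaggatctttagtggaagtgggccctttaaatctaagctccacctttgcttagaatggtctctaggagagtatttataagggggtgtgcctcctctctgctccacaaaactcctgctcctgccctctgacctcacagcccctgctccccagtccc
The promoter table held entries for 6 of the members, and none for Ret, Bcl6b, Pou3f1 and Zbtb16. Etv5 had 2 entries, and its promoter below is the printed one unless stated. The Id4 promoter carried 39 CpG and the Etv5 promoter 37, which 4.45% and 5.58% of the 32851 mouse promoters in that table reach or exceed. The other Etv5 entry (chr16:22438319-22438618) had 19 CpG and no GGGCGG, and peaks of 2 of the 33 lists overlapped it, both of them H3K4me3. The Gfra1 promoter had 12 CpG, against a median of 7 over all promoters. The Nanos2 promoter had 0, as did 5.43% of all promoters. Lhx1 had 31 CpG and Eomes 10. Of 3 motifs searched on both strands, TATAAA was found in the Nanos2 promoter alone among the 6 members and in 13.6% of all promoters of this length. GGGCGG was found 5 times at Id4 and 3 times at Etv5, and in 35.7% of all promoters. CCAAT was found in all 6 members, and in 37.4% of all promoters. A match is a run of letters and not a bound site.

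The RNA libraries held 12396345 to 16598249 expected counts in bulk and 15610392 to 18547103 in Smart-seq2. Of all genes, 16554 in bulk and 16443 in the sorted cells were expressed highly enough to be tested, and every member was among them. Id4, Gfra1, Pou3f1, Nanos2 and Eomes overlap other annotated genes, and whether counting used the strand is not stated, so that reads of overlapping partners may be included. A gene was called when edgeR gave an adjusted p (Benjamini-Hochberg FDR) below 0.05 and at least a 2-fold change. Prmt1 itself was lower in every Prmt1-dKO library than in any WT library of the same assay, at 146, 199 and 158 CPM (counts scaled to a library of fixed total) against 237, 219 and 247 in whole testis and at 112 and 86.5 against 216 and 149 in sorted cells. Its edgeR log2 fold change was −0.49 (SE 0.13, FDR 0.0334) in whole testis and −0.88 (SE 0.26, FDR 0.133) in sorted cells. The deleted exons are a part of the gene, so that a whole-gene count checks the genotype only in part. The genotypes of sorted cells differed in the number of genes with at least 1 count, with 17106 and 15587 in WT and 21404 and 20194 in Prmt1-dKO.

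In whole testis at P7, none of the 10 self-renewal genes was called higher or lower, where 5.32% of all genes tested were called higher and 1.78% lower. At an FDR below 0.05 without the fold limit, only Ret rose and no member fell, where 10.6% of all genes rose and 8.51% fell. At an unadjusted p below 0.05, Id4, Gfra1, Ret and Lhx1 were higher and none was lower, where such a p was reached by 18.2% of all genes in the upward and 15.7% in the downward direction. DESeq2 also called 0 members, against 6.34% of its tested genes higher and 1.37% lower. Of the 10 log2 fold changes 8 were above 0, as were 52.1% over all genes, and 2 were below 0, as were 47.9%, and their median was 0.37 against 0.02 over all genes. In whole testis, a change in the number of germ cells and a change in RNA per cell cannot be told apart.

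Of the GDNF receptor pair, Ret passed the edgeR test at any fold in whole testis and Gfra1 did not. Ret stood at 52.9, 54.0 and 49.6 CPM in WT and 68.5, 62.1 and 82.3 CPM in Prmt1-dKO (log2 fold change 0.45, SE 0.13, 95% interval 0.16 to 0.73, edgeR FDR 0.0382). The genotypes did not overlap for Ret in CPM, as for 20.9% of all genes upward. In TPM they overlapped, at 17.14 to 19.77 in WT and 17.65 to 26.52 in Prmt1-dKO. The edgeR result for Ret depended on the libraries and on the fit. Its FDR was 0.0814 to 0.162 in 5 of the 6 fits that left out 1 library, and 0.108 with replicate number as a block. It was 0.000931 without Prmt1-dKO replicate 2, and DESeq2 gave an adjusted p of 0.0301. Gfra1 stood at 26.9, 28.1 and 23.5 CPM in WT and 39.8, 28 and 46.1 CPM in Prmt1-dKO (log2 fold change 0.54, SE 0.18, FDR 0.0670). Prmt1-dKO replicate 2 lay within the WT range for Gfra1, and the other Prmt1-dKO libraries above it.

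None of the transcription factor genes downstream of GDNF passed the test in whole testis. Etv5 had 50.1, 48.8 and 46.3 CPM in WT against 63.9, 47.6 and 65.8 in Prmt1-dKO (log2 fold change 0.29, interval −0.02 to 0.60, FDR 0.175). Bcl6b had 17.3, 18.0 and 16.8 against 21.7, 18.6 and 24.1 CPM (0.30, interval −0.00 to 0.61, FDR 0.153). ETV5 is an ETS family activator and BCL6B a zinc finger repressor. Lhx1, the lowest of this group, had 4.55, 3.80 and 4.71 against 7.08, 5.26 and 5.90 CPM (0.48, SE 0.21, FDR 0.139). Pou3f1 had 22.5, 21.1 and 21.9 against 23.5, 27.3 and 23.4 CPM (0.18, SE 0.12, FDR 0.335). In CPM every Prmt1-dKO library exceeded every WT library for Bcl6b, Lhx1 and Pou3f1, as for 20.9% of all genes, but not for Etv5. In TPM this held for Lhx1 alone among these genes, as for 12.4% of all genes. The intervals for Etv5 and Bcl6b include 0.

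Id4, which marks the stem cell end of the undifferentiated pool, had 13.1, 11.6 and 10.9 CPM in WT and 17.1, 14.7 and 16.2 CPM in Prmt1-dKO without overlap (log2 fold change 0.43, interval 0.11 to 0.75, edgeR FDR 0.0617). Zbtb16 had 69.6, 79.5 and 63.2 CPM in WT and 75.4, 45.1 and 77.8 in Prmt1-dKO, and its log2 fold change of −0.10 (SE 0.20, FDR 0.767) became 0.11 without Prmt1-dKO replicate 2. Prmt1-dKO replicate 2 was the lowest library of all for Zbtb16, and the lowest Prmt1-dKO library for Gfra1, Ret, Etv5, Bcl6b, Lhx1 and Id4. Nanos2 was low, with 37, 18 and 29 expected counts in WT against 9.5, 24 and 16 in Prmt1-dKO (log2 fold change −0.57, interval −1.59 to 0.45). Eomes was as scarce, with 30, 15 and 16 counts against 31, 21 and 26 (0.51, interval −0.36 to 1.38). Groups did not overlap for 5 of 10 members, all of them higher in Prmt1-dKO (Id4, Ret, Bcl6b, Lhx1 and Pou3f1), against 20.9% of all genes higher and 19.9% lower. This count is in CPM, and in TPM the genotypes overlapped for every member but Lhx1, which was higher, against 12.4% of all genes higher and 26.4% lower.

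**Figure D1:**
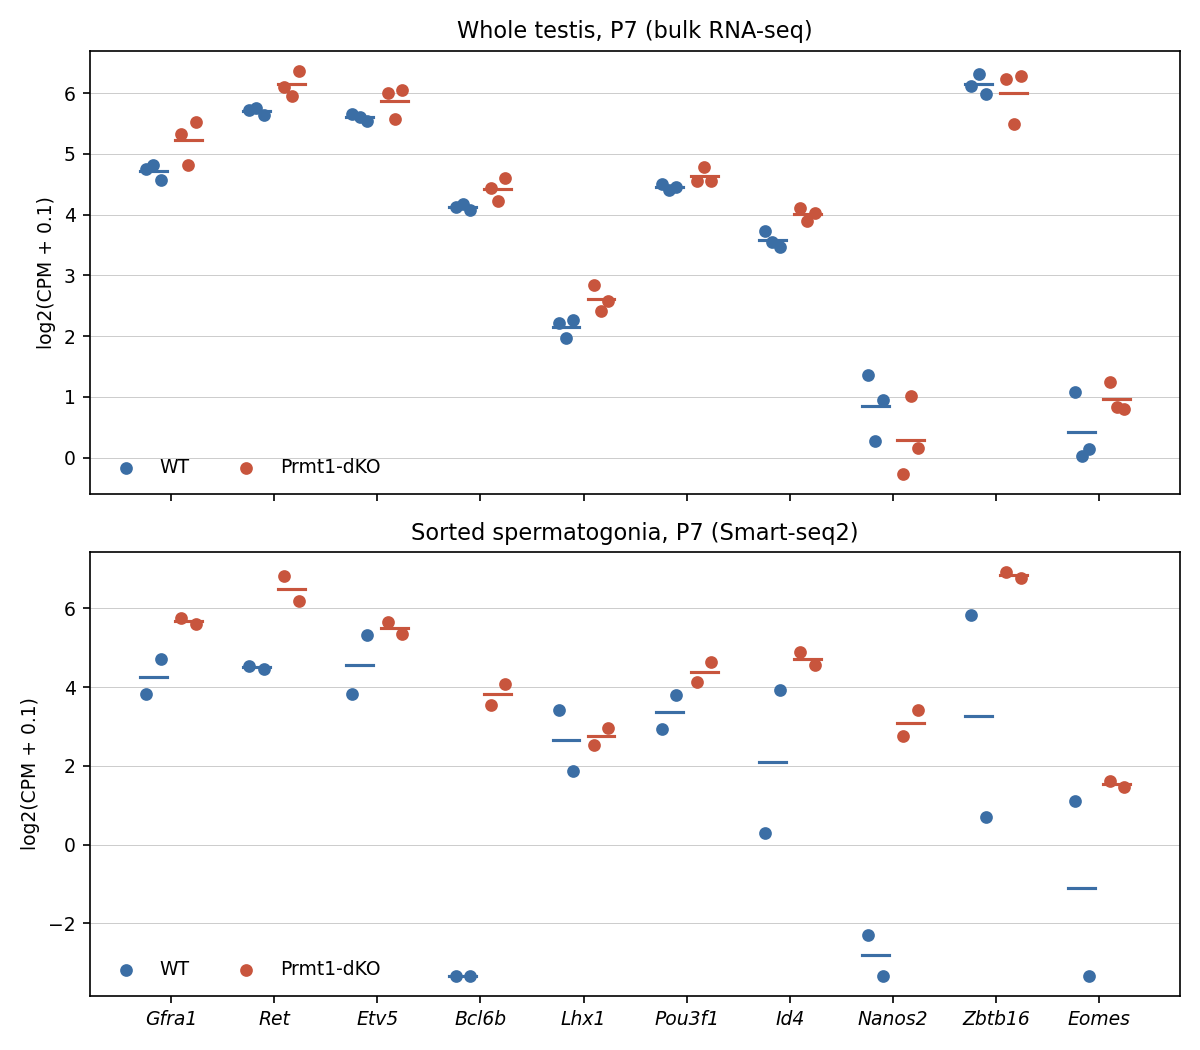
Level of each of the 10 genes in every RNA library, as log2(CPM + 0.1) on the vertical axis, with whole testis and sorted spermatogonia in separate panels. Points are libraries and bars the means of the log values. In whole testis the genotypes lie close together, and in sorted cells the WT points of Id4, Zbtb16 and Eomes are far apart while Bcl6b is at 0 counts in both WT libraries.

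Markers of other testis cells moved with genotype in whole testis, and are given here as a measurement. The summed level of 5 Leydig cell markers was 618 to 719 TPM (a level scaled by transcript length and to a fixed total) in WT and 156 to 178 in Prmt1-dKO, with 4 of the 5 called lower by edgeR. For 4 peritubular markers it was 648 to 698 against 208 to 367 TPM, with 3 called lower. For 8 Sertoli markers it was 2529 to 2831 against 1383 to 1578 TPM, with 1 called lower. Germ cell markers summed to 574 to 680 TPM in WT and 507 to 666 in Prmt1-dKO. Of the 5 tested, 1 was higher and 1 lower at an edgeR FDR below 0.05 at any fold, as were 10.6% and 8.51% of all genes. The part of these shifts in the differences of the self-renewal genes was not tested.

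In sorted spermatogonia edgeR called none of the self-renewal genes, with WT replicates that were far apart for several of them. edgeR called 0 of all genes (0% of 16443, smallest FDR 0.0774), while 4 members were higher at an unadjusted p below 0.05 (Gfra1, Ret, Bcl6b and Nanos2) but none lower. Over all genes, 16.4% reached such a p upward and 7.35% downward. DESeq2 called 3 members higher (Ret, Bcl6b and Nanos2), where it called 7.33% of its tested genes higher and 3.93% lower. Bcl6b and Nanos2 had at most 2 counts over both WT libraries and entered the edgeR test only through the Prmt1-dKO libraries. Their calls and p-values thus come from genes admitted for being high there and are given as a description. Eomes had 0 CPM in WT replicate 2, so that it also needed a Prmt1-dKO library to be tested. Its part in the counts below is read with that limit. No median log2 fold change is given for the members, because Bcl6b and Nanos2 entered through Prmt1-dKO alone. Of the 10, 9 were above 0, against 55.9% of all genes. For the same 9 every Prmt1-dKO library was above every WT library in CPM, against 36.3% of all genes. For no member was every one below, against 20.3%. Bcl6b and Nanos2 are among the 9 and among the 6 given next, and their part in these counts is a description. In TPM 6 members did not overlap and were higher (Id4, Ret, Bcl6b, Pou3f1, Nanos2 and Zbtb16), against 28.1% of all genes, Lhx1 was lower, as were 27.9%, and Gfra1, Etv5 and Eomes overlapped. On data simulated for this comparison, the test recovered 23 of 100 genes changed 4-fold and 2 of 100 changed 2-fold. A member changed by such factors would thus often be missed. The simulation gave both genotypes the same spread. In these data replicates lay over 2-fold apart for 40.3% of all genes in WT and 13.3% in Prmt1-dKO.

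Ret had WT readings close to each other in these cells, with 23.2 and 21.9 CPM in WT and 113 and 72.6 CPM in Prmt1-dKO (log2 fold change 2.04, SE 0.32, interval 1.19 to 2.89, edgeR FDR 0.0774). DESeq2 gave Ret an adjusted p of 6.22e-06, and over the edgeR alternatives the FDR of Ret ranged from 1.70e-08 to 0.9999. Gfra1 had 14.1 and 26.1 CPM in WT and 54.4 and 48.9 CPM in Prmt1-dKO (1.36, SE 0.44, FDR 0.152). The Gfra1 difference was on the count scale: per transcript length, its TPM were 9.52 and 19.78 in WT and 16.02 and 16.61 in Prmt1-dKO, which overlap.

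Bcl6b, a repressor gene induced by GDNF, had 0 counts in both WT libraries and 180 and 256 in the Prmt1-dKO libraries. Against a floor of 3 counts over the WT group, Bcl6b was 162-fold higher in Prmt1-dKO (edgeR FDR 0.0774, DESeq2 adjusted p 5.57e-07). The floor covers counting error only and not the spread between libraries, so that this ratio is not a bound on the genotype difference. In whole testis the same gene was read in every WT library. Of all genes tested in the sorted cells, 1371 (8.34%) had 0 counts in both WT libraries. Nanos2 had 2 and 0 counts in WT against 103 and 159 in Prmt1-dKO, a ratio of 146 with a 95% interval of 40.0 to 1213 that covers counting error only (edgeR log2 fold change 7.18, SE 1.90, FDR 0.0987, DESeq2 adjusted p 0.000276, range over the edgeR alternatives 1.57e-07 to 0.9999). Genes with at most 2 counts over both WT libraries made up 9.99% of those tested.

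The sorted WT libraries were far apart for Id4, Zbtb16 and Eomes. Id4 had 22 counts in WT replicate 1 and 287 in WT replicate 2, against 459 and 355 in Prmt1-dKO (edgeR log2 fold change 1.71, interval −1.60 to 5.03). Zbtb16 went the other way, with 1107 counts in WT replicate 1 and 29 in WT replicate 2, against 1875 and 1648 in Prmt1-dKO (1.97, interval −1.90 to 5.83). Eomes had 40 and 0 counts in WT and 46 and 40 in Prmt1-dKO (1.43, interval −4.15 to 7.01). Neither WT library was thus the lower one for all 3 genes. With 0.1 CPM added to each value, WT replicates lay more than 2-fold apart for 6 of 10 members, as for 40.3% of all genes tested. Prmt1-dKO replicates did so for 0 of 10 and 13.3%. Nanos2 is one of the 6 at a log2 gap of 1.02, which depends on the added value.

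Etv5, Pou3f1 and Lhx1 had intervals that include 0 in sorted cells. Etv5 had 14.0 and 39.9 CPM in WT and 50.6 and 40.4 CPM in Prmt1-dKO (edgeR log2 fold change 0.75, interval −0.80 to 2.31), and its TPM overlapped between genotypes. Pou3f1 had 7.50 and 13.9 against 17.4 and 25.0 CPM (0.99, interval −0.78 to 2.76). Lhx1 had 10.7 and 3.56 against 5.73 and 7.75 CPM (−0.08, interval −2.78 to 2.63) and was the only member whose groups overlapped in CPM. Per transcript length Lhx1 was lower in Prmt1-dKO without overlap, at 1.6 and 2.42 TPM against 4.76 and 8.79 in WT. Lhx1 also changed sign when either WT replicate 1 or Prmt1-dKO replicate 1 was left out, to 0.94 and 0.15.

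The calls in sorted cells depended on the WT pair. Without WT replicate 1, edgeR called 6 members higher (Gfra1, Ret, Bcl6b, Nanos2, Zbtb16 and Eomes), where it called 29.5% of all genes higher and 12.0% lower. Without WT replicate 2 it called 8 (Id4, Gfra1, Ret, Etv5, Bcl6b, Pou3f1, Nanos2 and Zbtb16), where it called 22.5% higher and 11.2% lower. In WT replicate 2, the only WT library left in the first of these fits, Bcl6b, Nanos2 and Eomes had 0 CPM. WT replicate 1 had 0 CPM for Bcl6b and 0.103 for Nanos2. The calls of these genes there come from genes admitted for being high in Prmt1-dKO and are a description. In these fits the lone WT library is assumed to vary like the Prmt1-dKO pair. With either Prmt1-dKO library left out it called 0.

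**Figure D2:**
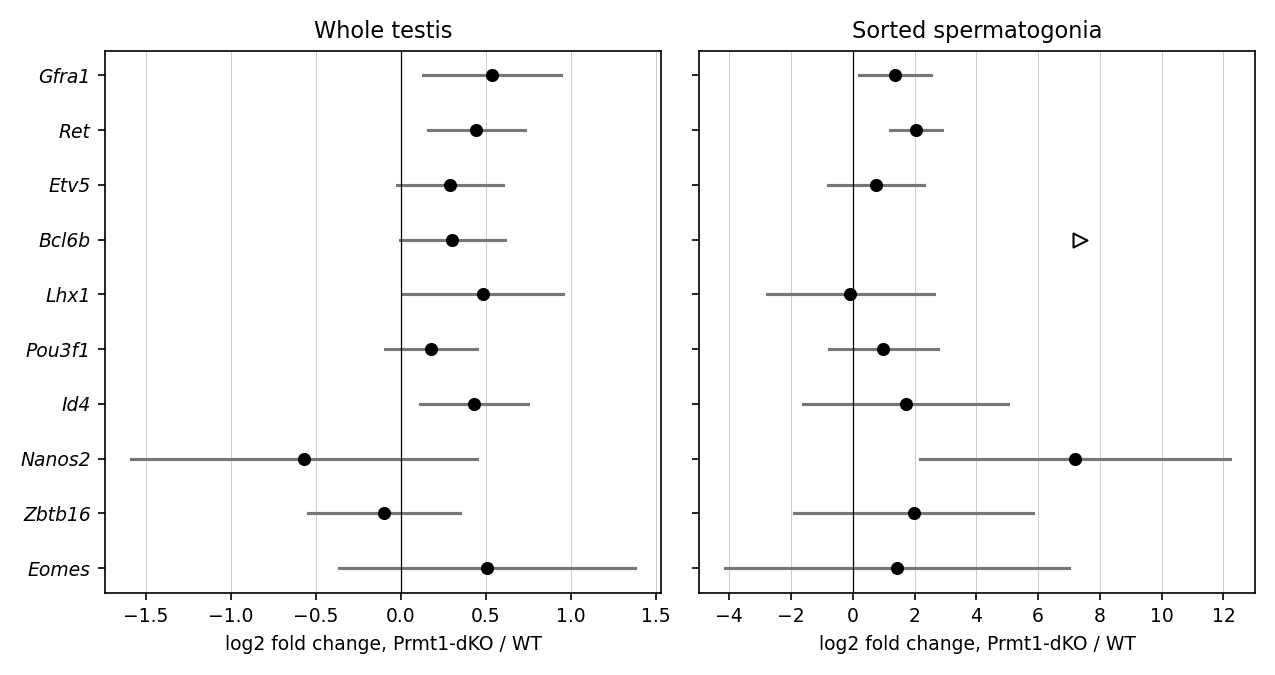
Log2 fold change of Prmt1-dKO against WT for each gene, from edgeR, with 95% intervals, in whole testis and in sorted spermatogonia. The horizontal ranges of the panels differ. The open triangle gives Bcl6b against a floor of 3 WT counts, which covers counting error only and not the spread between libraries. Whole testis values lie between −0.57 and 0.54, and in sorted cells the intervals of Gfra1, Ret and Nanos2 lie above 0.

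Markers of other cells also differed between the sorted genotypes. All 5 macrophage markers and all 4 endothelial markers were at 0 in both WT libraries and summed to 10.5 to 13.5 TPM and 1.04 to 1.09 TPM in Prmt1-dKO. Leydig cell markers summed to 0.12 to 6.97 TPM in WT and 4.74 to 8.13 in Prmt1-dKO, with 4 of 5 at 0 in both WT libraries and 2 of 5 at 0 in both Prmt1-dKO libraries. Peritubular markers summed to 0 to 5.41 TPM in WT, with 3 of 4 at 0 in both libraries, and to 3.37 to 3.95 in Prmt1-dKO. Sertoli markers summed to 128 to 148 TPM in WT and 128 to 193 in Prmt1-dKO, and germ cell markers to 2364 to 2465 and 1489 to 1541. Of the germ cell markers, Tex101 differed most, with a mean of 1584 TPM in WT and 639 in Prmt1-dKO, whereas Dazl had 345 and 392 TPM and Ddx4 98.7 and 87.6. Their part in the differences of the self-renewal genes was not tested.

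A test of the difference between the assays, fitted over all 10 RNA libraries, passed for 3 of 10 members, against 19% of all genes tested. The members that passed were 5 without sorted WT replicate 1, against 41.5% of all genes, and 8 without sorted WT replicate 2, against 35.5%. The Prmt1-dKO effect was more positive in sorted cells than in whole testis by 1.69 (log2, SE 0.30, edgeR FDR 0.00542) for Ret. It was more positive by 7.81 (SE 1.24, FDR 0.00305) for Nanos2. For Bcl6b the fitted difference of 10.55 (FDR 0.000126) is not a bound, since both WT sorted libraries were at 0. The other 7 differences ranged from −0.48 for Lhx1 (FDR 0.728) to 2.14 for Zbtb16 (FDR 0.331). The joint fit shares a spread between assays whose biological coefficient of variation was 0.155 in whole testis and 0.767 in sorted cells.

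The order of levels per transcript length was different in whole testis and in sorted cells. In WT whole testis Zbtb16 was highest at a mean of 24.9 TPM, followed by Etv5 at 20.1, Ret at 18.7, Gfra1 at 10.9, Pou3f1 at 9.39, Bcl6b at 9.10, Id4 at 5.12, Lhx1 at 2.28, Nanos2 at 2.13 and Eomes at 0.613 (n = 3). Neighbours overlapped between libraries for Etv5 and Ret, for Gfra1, Pou3f1 and Bcl6b, and for Lhx1 and Nanos2. In Prmt1-dKO whole testis Ret (22.5 TPM), Etv5 (22.3 TPM) and Zbtb16 (20.0 TPM) led. In WT sorted cells (n = 2) Gfra1 was highest at 14.7 TPM and Bcl6b was at 0, and of the neighbours in that order only Ret (6.57 TPM) and Pou3f1 (3.68 TPM) did not overlap. In Prmt1-dKO sorted cells Zbtb16 (38.6 TPM) and Ret (22.6 TPM) led and Eomes was lowest at 1.52 TPM. The 10 genes summed to 55.1 to 59.2 TPM in WT and 120 TPM in both Prmt1-dKO sorted libraries, and to 92.5 to 110 and 83.8 to 124 TPM in whole testis.

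Around the members, the pathway was described by 4 further gene lists. Of 10 niche ligands and receptors, none was called in whole testis, and Fgfr2 rose at any fold (log2 fold change 0.60, edgeR FDR 0.00676). Fgf8 had 1.38 (FDR 0.127) and Wnt5a −0.30 (FDR 0.211). Gdnf itself had 35.3, 27.6 and 29.3 CPM in WT and 28, 33.9 and 28.2 in Prmt1-dKO whole testis (−0.03, FDR 0.887). In sorted cells Gdnf, a product of somatic cells, had 0 counts in both WT libraries and 36 and 86 in Prmt1-dKO. Wnt5a had 0 counts in both WT libraries and 74 and 113 in Prmt1-dKO, and Fgfr2 had 0 and 1 against 25 and 88. Those 3 entered the edgeR test only through the Prmt1-dKO libraries, so that their differences are a description. edgeR called none of the 7 niche genes tested in sorted cells. The macrophage and endothelial markers given above were at 0 in the same WT libraries. Sertoli markers summed to 128 to 148 TPM in WT and 128 to 193 in Prmt1-dKO, and peritubular markers to 0 to 5.41 and 3.37 to 3.95. The part of other cells in these differences was not tested.

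Of 8 ERK and AKT response genes, Ccnd2, the cyclin D2 gene, fell in whole testis from 456, 385 and 359 CPM in WT to 208, 148 and 193 CPM in Prmt1-dKO (log2 fold change −1.13, SE 0.15, edgeR FDR 0.00239). It was the only gene of the 4 lists called by edgeR in either assay, and without Prmt1-dKO replicate 2 its log2 fold change was −0.996, just under 2-fold. In sorted cells Ccnd2 had a log2 fold change of 0.54 on the count scale (FDR 0.140), but per transcript length it was lower in Prmt1-dKO without overlap, at 57.4 and 83.9 TPM against 94.6 and 129 in WT. Spry2, a feedback inhibitor of receptor kinases, had 1.68 in sorted cells (edgeR FDR 0.210). In whole testis the ERK phosphatase gene Dusp6 had −0.49 (FDR 0.0755) and Etv4 0.36 (FDR 0.136), and in sorted cells Etv4 had 3.83 (FDR 0.406). In the same bulk libraries the Sertoli, Leydig and peritubular sums given above were lower in Prmt1-dKO.

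Of 15 other genes of undifferentiated spermatogonia, none was called in whole testis, while Pou5f1 (log2 fold change 0.52, edgeR FDR 0.0363) and Plvap (0.97, FDR 0.0418) rose at any fold and Lin28a had 0.45 (FDR 0.0547). In sorted cells edgeR called none of the 15, and an unadjusted p below 0.05 was found for 7 that were higher and 1 that was lower, where 16.4% and 7.35% of all genes reached it. DESeq2 called 4 of the 15 higher (Sall4, Itga6, Neurog3 and Nanos3), against 7.33% of its tested genes. Neurog3, with 12 and 0 counts in WT against 245 and 364 in Prmt1-dKO, and Shisa6, one of the 7, with 0 and 2 against 13 and 33, entered the edgeR test only through the Prmt1-dKO libraries, so that their part in these counts is a description. Sall4, a zinc finger factor gene, had 62.6 and 66.0 CPM in WT and 176 and 178 in Prmt1-dKO (1.46, SE 0.16, FDR 0.0774). Itga6, the laminin receptor used to enrich stem cells, had 13.9 and 11.6 against 40.5 and 51.6 CPM (1.86, FDR 0.0774). Taf4b had 226 and 240 against 123 and 136 CPM (−0.85, FDR 0.0774). Of 8 genes of differentiating spermatogonia, none was called in either assay. Kit, the receptor that marks them, had a log2 fold change of −0.53 in whole testis (FDR 0.112), Ccnd1 of −0.46 (FDR 0.0783) and Rarg of 0.34 (FDR 0.0969). In sorted cells Ccnd1 had −0.53 (FDR 0.196), Dnmt3b 0.55 (FDR 0.220) and the helix-loop-helix factor gene Sohlh1 0.66 (FDR 0.253). Median log2 fold changes of the niche, ERK and AKT, undifferentiated and differentiating lists were −0.04, 0.16, −0.02 and −0.21 in whole testis, where the median of all genes was 0.02. In sorted cells those of the ERK and AKT and differentiating lists were 1.44 and 0.36, against 0.15. None is given for the niche list, because 3 of its 7 tested genes entered through Prmt1-dKO alone. None is given for the undifferentiated list either, because Neurog3 and Shisa6 entered in that way.

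At their promoters, 8 of the members carried H3K4me3 at P7 and P14, and each arginine mark was found at 1 or 2 members at P7. A member is called marked by a mark when at least 2 replicate lists hold a summit within 3000 bp of a start, and the same rule was applied to all 21938 protein-coding genes. No test was made, because 2 or 3 lists a group cannot pass an exact permutation test at the 0.05 level, and read depths are unknown. At P7, H3K4me3 marked 8 of 10 members (all but Bcl6b and Nanos2) against 60.7% of genes, and at P14 the same 8 against 63.1%. Those 8 had H3K4me3 in all 4 lists, as did 59.3% of genes. Of 44 H3K4me3 peaks at members 43 had a q of at most 0.01, and their median summit distance from a start was 161.5 bp.

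In WT at P7, H4R3me2a marked 2 members (Etv5 and Lhx1) against 15.3% of genes, H3R2me2a 1 (Etv5) against 10.9%, and H3R8me2a 1 (Etv5) against 9.67%. H4R3me1 marked 2 (Gfra1 and Eomes) against 10.8%, H4R3me2s 2 (Etv5 and Pou3f1) against 17.7%, and H3K27ac 1 (Etv5) against 30.9%. With peaks of a q at most 0.01, none of these marks met the rule at any member at P7, as against 0.46% to 1.53% of genes for the arginine marks and 10.4% for H3K27ac. Etv5 was the only member marked by more than 1 of these 6 marks at P7.

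At P14 H4R3me2a marked 6 members (Id4, Gfra1, Etv5, Bcl6b, Pou3f1 and Eomes) against 49.0% of genes and H3R2me2a 5 (Id4, Gfra1, Etv5, Lhx1 and Eomes) against 51.3%. H3R8me2a marked 2 (Id4 and Etv5) against 33%, H4R3me1 4 (Id4, Etv5, Zbtb16 and Eomes) against 29.9%, and H3K27ac 3 (Id4, Etv5 and Zbtb16) against 48.9%. H4R3me2s marked 3 (Id4, Etv5 and Eomes) against 34.2%, from the lists whose peak names begin with SD17. The lists held 18423 to 55908 peaks at P14 and 15361 to 36145 at P7, and those of H4R3me2s 18423 to 33814 at P14 and 19981 to 36145 at P7. With lists cut to equal length for each mark, H4R3me2a marked 3 members at P14 and 2 at P7, against 30.7% and 14.6% of genes. H3R2me2a then marked 2 and 1, against 29.7% and 10.3%. At P14 the same lists gave 1 member for H4R3me1 (24.4% of genes), H3K27ac (41.5%) and H3R8me2a (20.7%), and 5 for H3K4me3 (57.6%).

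**Figure D3:**
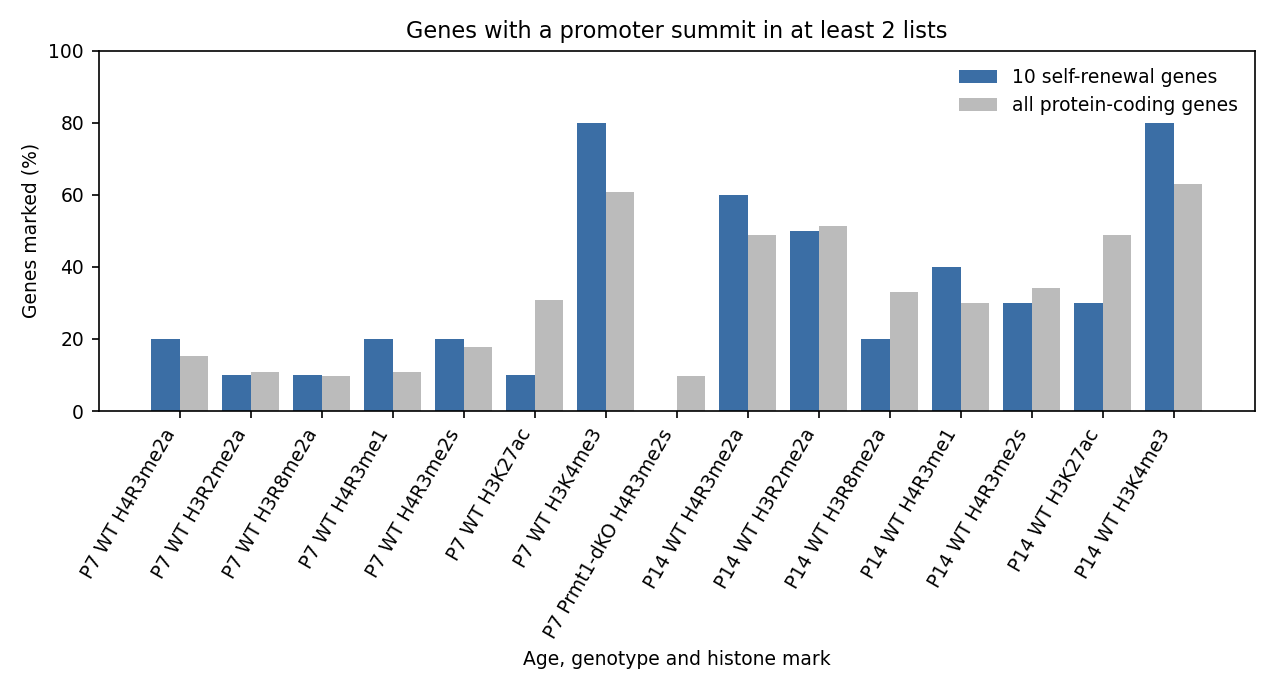
Share of the 10 genes and of all protein-coding genes marked by each CUT&Tag mark, age and genotype, in percent, where marked means a summit within 3000 bp of a start in at least 2 lists. The members reach 80% for H3K4me3 at both ages, against 60.7% and 63.1% of genes, and 0% for H4R3me2s in Prmt1-dKO, against 9.77%.

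Etv5, the ETS factor gene that lies at chr16:22381309-22439719 on the minus strand, was the most often marked member. It had a summit in 29 of 33 lists, which 5.01% of protein-coding genes reach, and in all 16 lists of P14 and 13 of 15 WT lists of P7. Its H3K4me3 peaks had fold enrichments of 7.01 and 6.57 at P7 and 6.89 and 6.59 at P14, with summits 58 to 141 bp inside the gene. At P14 the summits of H3R8me2a lay 98 and 79 bp inside the start with folds of 4.91 and 5.16, both with q at most 0.01. At P7 H4R3me2a had a summit at −162 bp in replicate 1 (fold 3.29) and in replicate 2 at an internal start (chr16:22401345-22401544, fold 2.78), so that the lists that mark Etv5 do not share a position. The CpG-rich 300 bases printed above overlapped a peak in 25 of the 33 lists, including 4 of 4 for H3K4me3, 3 of 4 for H3K27ac and 18 of 23 WT lists of arginine marks. Etv5 has 5 annotated starts over 37890 bp, which gives it more room for a summit than a gene with 1 start.

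Id4 (chr13:48261228-48266026, plus strand) came next with 21 lists, 6 of 15 WT lists at P7 and 14 of 16 at P14. As many lists or more were reached by 26.9% of protein-coding genes, whose median was 13 lists. The number of Eomes, next after Id4, was reached by 42.5% of genes, and that of Ret and Bcl6b by 68.1%. Id4 had the following marks. It was marked by every mark at P14 and by H3K4me3 alone at P7. At P14 its H3R2me2a summits lay 580 and 1249 bp downstream of the start in replicate 1 (folds 3.51 and 3.46) and 911 bp in replicate 2 (fold 4.03), all with q at most 0.01. The genes A330033J07Rik and Gm49291 start within the same window, so that a summit there cannot be assigned to Id4 alone. The same holds for Lhx1, which shares its window with a start of Lhx1os, and for Pou3f1, which shares it with Gm2164. Peaks overlapped the printed Id4 promoter in 6 lists, of which 4 were H3K4me3.

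The receptor genes differed from each other. Gfra1 (chr19:58235604-58455909, minus strand) had summits in 15 lists, 11 of them of arginine marks in WT, while its H3K4me3 folds were 3.04 to 4.55. Ret (chr6:118151745-118197718, minus strand) had H3K4me3 folds of 4.502 to 6.206 and only 3 lists with an arginine mark. These 3 Ret summits lay close together, at −2635 bp from the start for H4R3me2a and −2626 bp for H4R3me1 at P14, and at −2625 bp for H4R3me2s in Prmt1-dKO at P7 (negative values are upstream). Folds are relative to the local background of each library and were not compared between libraries.

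Eomes (chr9:118478212-118486132, plus strand) had summits in 16 lists, and its summits at P14 fell in a coding exon at least once for every arginine mark. Lhx1 (chr11:84518284-84525535, minus strand) had 14 lists, with H3K4me3 at its main start and arginine summits mostly in its exons up to 2820 bp from a start. Pou3f1 (chr4:124656807-124660655, plus strand) had 12 lists, with H4R3me2s at P7 at 618 bp (fold 3.85) and −344 bp (fold 3.75). Zbtb16 (chr9:48654297-48836222, minus strand) had 13 lists, with H3K4me3 folds at P7 of 6.99 and 5 beside its start. Bcl6b (chr11:70224128-70229798, minus strand) had 7 lists, 0 of 15 in WT at P7 and 6 of 16 at P14, where H4R3me2a summits lay at −738, −1001 and 582 bp. Nanos2 (chr7:18987400-18988962, plus strand) had no summit in any of the 33 lists, as 13.4% of protein-coding genes did, and of the 6 members with a promoter entry it was the one with no CpG there.

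**Figure D4:**
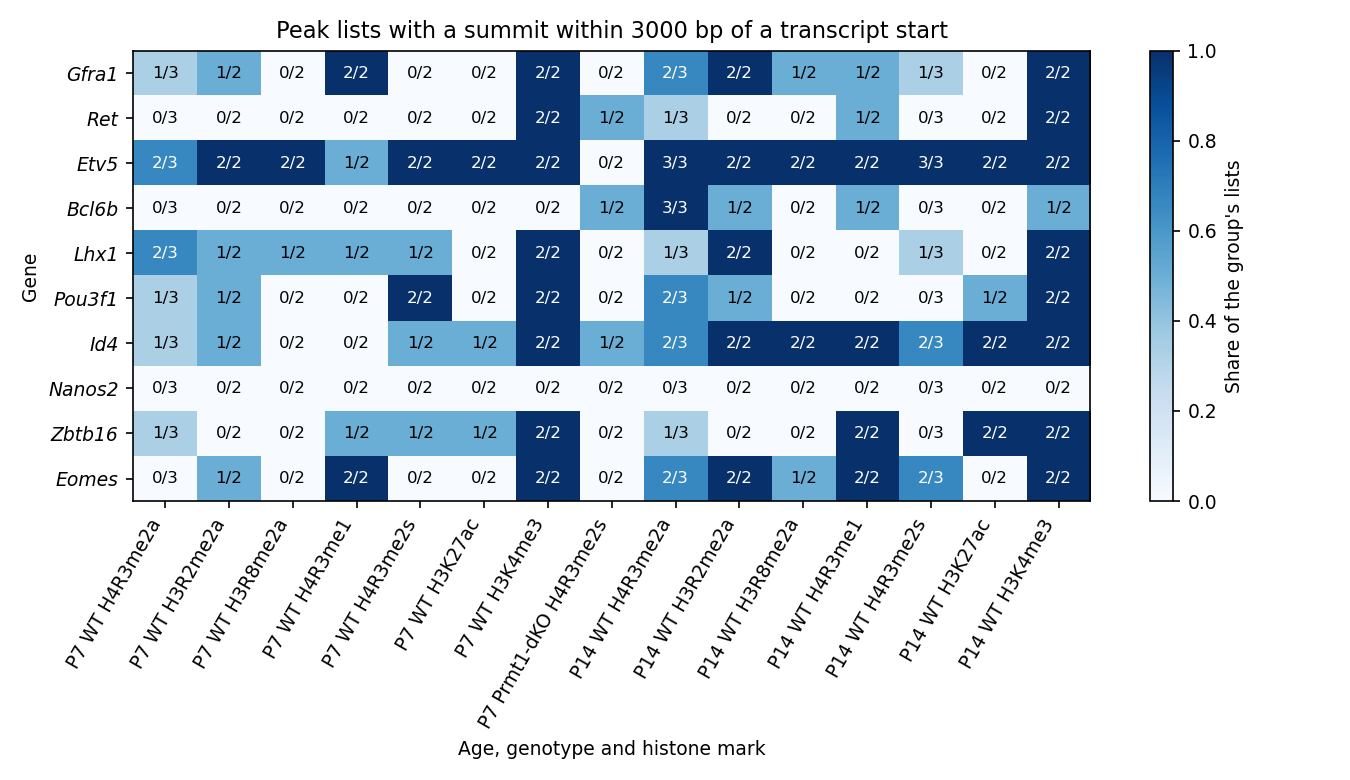
Number of replicate lists with a summit within 3000 bp of a start, over the number of lists, for each gene (rows) and each mark, age and genotype (columns). The row of Etv5 is filled in all P14 columns, the H3K4me3 columns are filled for 8 genes, and the row of Nanos2 is empty.

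**Figure D5:**
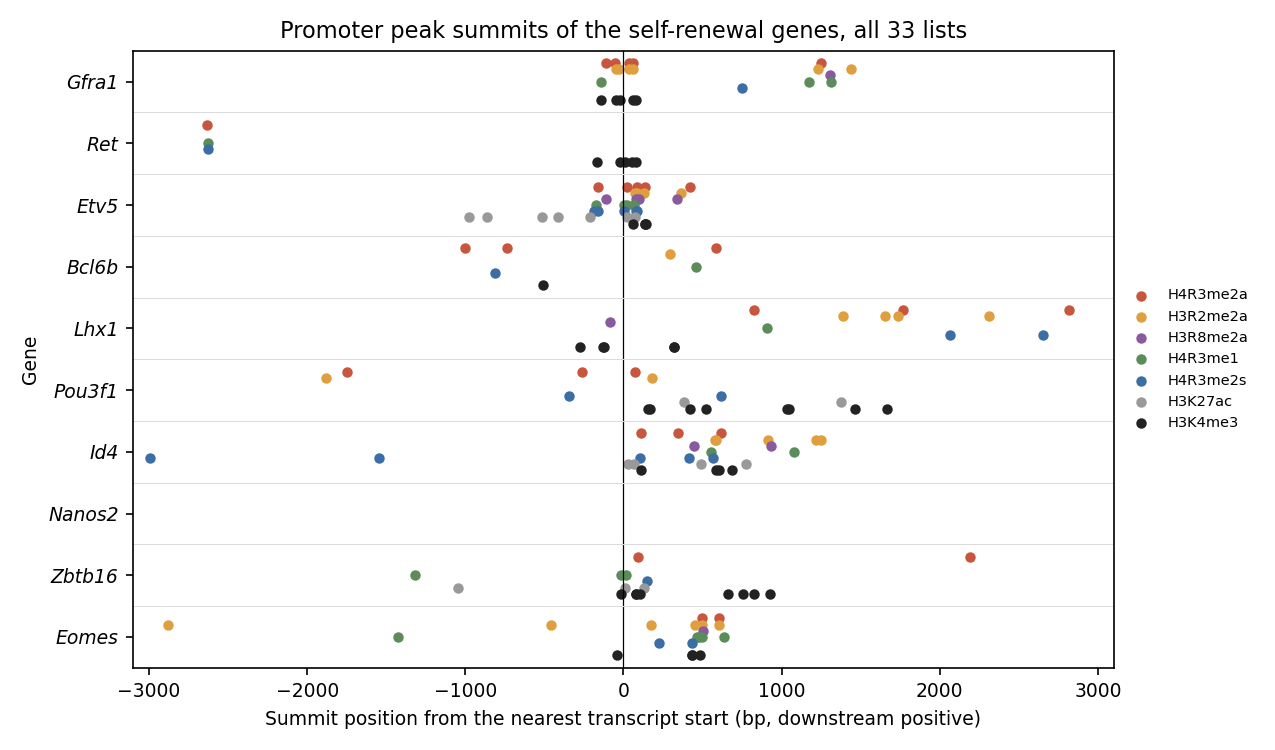
Distance of each summit at the 10 genes from the nearest annotated start, in bp with negative values upstream, for each mark over all 33 lists. H3K4me3 summits gather at the starts, with a median distance of 161.5 bp, and the median for H4R3me2a is 420 bp and for H3R2me2a 539.5 bp.

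H4R3me2s is the only mark with lists from both genotypes. At P7 it marked Etv5 and Pou3f1 in WT and no member in Prmt1-dKO, against 17.7% and 9.77% of genes, from lists of 19981 and 36145 peaks in WT and 33941 and 28221 in Prmt1-dKO. At Etv5 the WT summits lay at −188 and −162 bp with folds of 2.41 and 5.36, the first among the lowest 0.551% of its list and the second above 98.1% of its list. Neither Prmt1-dKO list had a summit at Etv5 or Pou3f1. Single Prmt1-dKO lists had one at Bcl6b (−813 bp, fold 2.53), Id4 (−1547 bp, fold 3.77) and Ret (−2625 bp, fold 3.09), and none of these had a q of at most 0.01. With a summit in any list as the rule, 5 members in WT and 3 in Prmt1-dKO had one, against 48.9% and 40.7% of genes. Of the 3892 genes marked in WT, 985 (25.3%) were also marked in Prmt1-dKO. With lists of equal length, Etv5 was no longer marked in WT. These counts are a description and were not tested.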

How the data were processed

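RNA was measured in 10 libraries and histone marks in 33 CUT&Tag libraries of mouse testis. The authors trimmed reads with fastp 0.23.2, aligned RNA reads with STAR to mm10 and counted with RSEM (version not given in the sources used here). The deposited gene tables hold expected counts, TPM and FPKM, of which the expected counts were rounded and tested and TPM was used for levels; FPKM was not used. The authors called peaks per library with MACS2 2.1.0, and the deposited lists give each peak's fold enrichment (a ratio to local background) and its −log10 p and q. The aligner and any control library for CUT&Tag are likewise not given. Peak lists hold no read counts, so that their depth is unknown.

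Genotypes were compared within each assay with edgeR 4.0.16 in R 4.3.3 (filterByExpr, TMM scaling, quasi-likelihood test, FDR over all genes tested), and CPM are on the TMM-scaled library size. SE is the log2 fold change over the square root of its F statistic. DESeq2 1.42.0, RLE scaling, no filter on low counts, replicate number as a block and leaving out each library were tried as alternatives, and for peaks a q of at most 0.01, a window of 1000 bp, overlap of the interval, lists of equal length and a summit in any list. The fits were tested on simulated data; in whole testis 91 of 100 genes changed 4-fold and 37 of 100 changed 2-fold were recovered. Replicates of different genotypes shared numbers, but same-numbered deviations correlated at −0.221 to 0.0825 in whole testis and 0.0177 in sorted cells. The numbers were therefore not taken as pairs. All members were named, and of each further list every called gene and otherwise up to the 3 smallest p in an assay; Gdnf was added after its values were seen. The members and lists were chosen with earlier results of these data known. Promoter sequences came from RefSeq (GRCm38.p6), and the interval of the Nanos2 ratio and the floor of 3 counts cover counting error only, whereas the intervals of log2 fold changes come from edgeR and include the spread between libraries. Of 55401 gene identifiers, 55141 matched GENCODE vM21.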

Additional observations from a re-analysis of the deposited data

Results flagged for a closer look

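The Prmt1-dKO effect differed between sorted spermatogonia and whole testis for 3 of 10 members by the edgeR interaction test, which 19% of all genes tested passed. On the log2 scale, the effect in sorted cells minus that in whole testis was 1.69 for Ret, 10.55 for Bcl6b and 7.81 for Nanos2. The values for Bcl6b and Nanos2 rest on sorted WT libraries with 0 and 0 counts and with 2 and 0 counts.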

How the results depend on the processing

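In whole testis the log2 fold changes of members lay between −0.57 and 0.54, so that few alternatives could reach the 2-fold limit of the threshold. The changes in the FDR of Ret given above therefore count as the same side. Under every alternative, including the replicate block, 0 members were called. Of the alternative log2 fold changes of members, 99 of 100 kept their direction and side of the threshold. The exception was Zbtb16, whose values ranged from −0.23 to 0.11 when 1 library was left out, with 0.11 without Prmt1-dKO replicate 2. In sorted cells 60 of 80 did, 17 passed the threshold only under the alternative, and 3 changed sign. These 3 were all Lhx1, at 0.11 with the replicate block and between −0.64 and 0.94 when 1 library was left out. In sorted cells DESeq2 called 3 members higher, against 7.33% of its tested genes. Leaving out 1 library gave 0 to 8, namely 6 without WT replicate 1, where 29.5% of all genes were called higher, 8 without WT replicate 2, against 22.5%, and 0 of all genes without a Prmt1-dKO library. Among the members called without WT replicate 1 were Bcl6b, Nanos2 and Eomes, at 0 CPM in the WT library left, so that their calls are a description. The calls of Bcl6b and Nanos2 without WT replicate 2 and in DESeq2 are a description too. The replicate block, RLE scaling and no filter gave 0 members and 0 of all genes. The difference between the assays passed for Ret, Bcl6b and Nanos2 with RLE scaling, no filter and the replicate block, and with DESeq2 and each library left out, which were added after seeing the data. Leaving out 1 library gave 3 to 8 members, and 13.2% to 41.5% of all genes. In these fits the difference for Lhx1 ranged from −1.05 to 0.54, with 0.54 without sorted WT replicate 1. A lone sorted library is assumed to vary like the other groups. Same-numbered libraries were not taken as pairs, and the block moved the genes called in whole testis from 881 to 691 higher and from 294 to 259 lower. The cause of these changes was not tested.

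The counts of marked members moved more, and so did the shares of all genes given in brackets. With a q of at most 0.01, every P7 mark but H3K4me3 fell to 0 members (0.223% to 10.4% of genes), and at P14 H4R3me2a, H3R8me2a, H4R3me1, H3K27ac and H4R3me2s fell to 1 and H3R2me2a to 2 (6.5% to 39.9% of genes). With lists of equal length the count was 1 for P7 H4R3me2s (12.9%), and at P14 3 for H4R3me2a, 2 for H3R2me2a, 1 for H3R8me2a, H4R3me1 and H3K27ac, and 5 for H3K4me3 (20.7% to 57.6%). A window of 1000 bp gave 1 for P7 H4R3me2a (9.83%) and H4R3me1 (6.65%). A summit in any list gave, at P7, 6 for H4R3me2a and H3R2me2a, 2 for H3R8me2a, 5 for H4R3me1 and H4R3me2s, 3 for H3K27ac and 3 for H4R3me2s in Prmt1-dKO (32.8% to 48.9%), and at P14 4 for H3R8me2a, 7 for H4R3me1 and 5 for H4R3me2s (53.7% to 57.4%). Leaving out 1 list asked for a summit in every remaining list, which for groups of 2 lists is a single list, and gave, at P7, 0 to 2 for H4R3me2a, 2 to 5 for H3R2me2a, 1 to 2 for H3R8me2a, 3 to 4 for H4R3me1, 2 for H3K27ac, 3 to 4 for H4R3me2s and 1 to 2 in Prmt1-dKO (7.78% to 40.9%). At P14 it gave 3 to 4 for H4R3me2a, 4 to 7 for H4R3me1 and 1 to 3 for H4R3me2s (20.1% to 42.7%). The rest of the 108 alternatives, 61 in number, stayed within 1.5 times the reported count. The sequencing depth of the lists is unknown, so that a missing summit is not evidence that a mark is absent.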
